A study of Homo sapiens with 4 samples.

Results

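The cells described here are the S phase cells of human aggregates at 40 h, meaning the cells caught while copying their DNA in the early aggregates from which blastoids, embryo models made of stem cells, later form. They were chosen by measured expression, as the 20% of aggregate cells with the highest share of unique transcript molecules (UMIs) from 9 genes: DUT, GINS2, DTL, UNG, CLSPN, E2F1, FAM111B, TK1 and WDR76. This selected 423 members out of 2115 aggregate cells, which are themselves part of 12793 cells kept in the whole series. The members were compared with the 1058 cells in the lower 50% of the same score, and 634 cells lay between them.

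The study used naive embryonic stem cells of the H9 line, an established human embryonic stem cell line, kept in PXGL medium and cleared of feeder cells. They were aggregated in microwells in N2B27 with the ROCK inhibitor Y27632 for 16 h and then moved to PALLY medium, which inhibits MEK and TGFβ receptor signalling and adds LIF, lysophosphatidic acid and Y27632. One culture, the 0 mM arm, received no dimethyl α-ketoglutarate (dm-αKG), a cell-permeable form of the TCA cycle metabolite α-ketoglutarate, and the other, the 4 mM arm, received 4 mM; all other agents were shared. Each culture carried its own antibody hashtag, was sorted, and was captured together with 120 h blastoids of both doses in run 1 of the 10x Genomics 3′ assay, while run 2 held blastoids only. There was thus 1 aggregate culture per dose, so any difference between doses cannot be told apart from a difference between these cultures or hashtags, and no test of dose was possible.

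In G1, the MCM2-7 helicase is loaded onto replication origins (licensing). At the start of S phase, CDC45 and GINS switch it on (firing), polymerases are clamped to the template by PCNA, and the enzymes of deoxynucleotide synthesis and the histone genes are expressed alongside. Many of these genes are driven by E2F factors, which are released from RB proteins when cyclin E and CDK2 become active. Pluripotent stem cells are known for a short G1 and a large share of cells in S phase. Genes of G2 and mitosis follow later, and many of their promoters carry a CHR element read by the DREAM and MuvB complexes.

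Because the chosen genes included known E2F targets, the promoters of the changing genes are shown first. RefSeq promoters (GRCh38.p14, from 250 bases before to 50 bases after the start site) were searched on both strands for 4 E2F motif spellings, TTTCCCGC, TTTGGCGC, TTTCGCGC and TTTGCCGC, with overlapping matches allowed. Of the 9 genes of the rule, 7 had an entry, and 4 of these held a match. GINS2, an E2F1 promoter with 2 matches, DTL and the replication clamp PCNA, which the rule did not use, are printed as the 60 bases before the start site on the strand of the gene, with the E2F letters in capitals. They lie at chr16:85688955-85689014 (minus strand), chr20:33686386-33686445 (minus), chr1:212035688-212035747 (plus) and chr20:5126623-5126682 (minus). PLK1, a mitotic kinase gene at chr16:23678829-23678888 (plus), is shown for contrast, with the CHR letters TTTGAA in capitals.
GINS2: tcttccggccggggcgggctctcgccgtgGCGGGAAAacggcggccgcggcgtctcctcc
E2F1: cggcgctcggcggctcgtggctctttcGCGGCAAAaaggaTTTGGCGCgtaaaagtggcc
DTL: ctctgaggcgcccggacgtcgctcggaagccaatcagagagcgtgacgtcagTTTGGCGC
PCNA: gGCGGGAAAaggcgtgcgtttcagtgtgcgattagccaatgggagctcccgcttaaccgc
PLK1: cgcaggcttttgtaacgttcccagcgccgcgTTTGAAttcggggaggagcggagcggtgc

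An E2F spelling was present in 3.33% of all 27305 RefSeq promoters and in 6.41% of the promoters of the genes counted below. Among the genes called higher in the members, excluding the 9 chosen ones, 50 had an entry and 14 of them (28.0%) held a match. Of the 10 genes with an entry that were called lower, 0 did, a count near the background of 6.41%. The CHR letters were found in 9.59% of counted genes, in 20.0% of the genes called higher and in 5 of the 10 called lower, PLK1 among them. These matches are descriptions of letters in a window and not of bound sites.

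The score, in UMIs of the 9 genes per 10,000 UMIs of the cell, had a median of 9.57 in the members and 3.03 in the lower 50%. It formed a continuous distribution with no gap at the cut. The lowest member and the highest cell outside stood at 7.79, the 10 members closest to the cut reached 7.87, the 10 cells just outside went down to 7.73, and 117 cells lay within 5% of the cut. The members are therefore the upper range of a score and not a separate cluster.

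**Figure D1:**
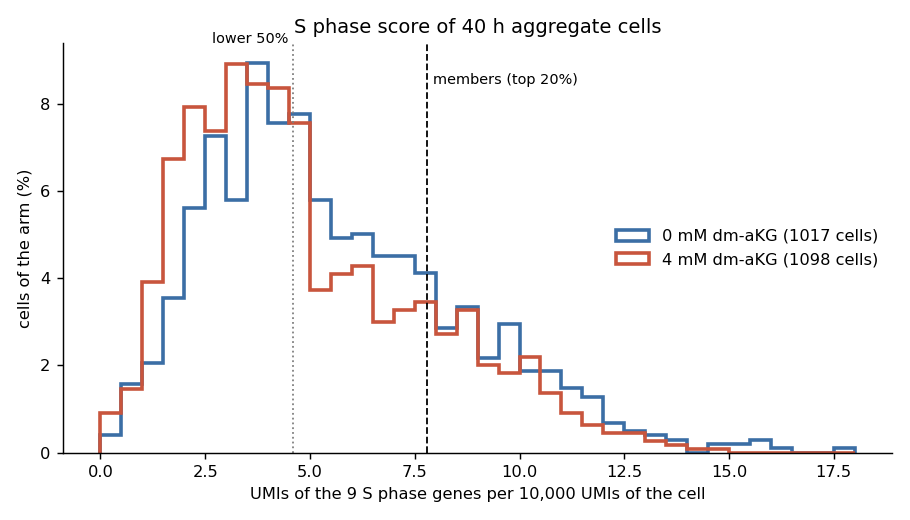
Distribution of the S phase score over aggregate cells, as UMIs of the 9 chosen genes per 10,000 UMIs (x axis) against the percentage of cells of each arm (y axis), with 0 mM in blue and 4 mM in red. The dashed line is the cut for members and the dotted line the upper bound of the lower 50%; both arms have 1 broad peak below the dotted line and a long tail to the right.

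The label was checked on S phase genes that the rule left out. Of the 38 other genes of the standard Seurat S phase list, 31 were measured highly enough to count, and 23 of these were called higher in the members and 0 lower. The Seurat cell cycle call placed 92.2% of members in S phase, 5.67% in G2/M and 2.13% in G1. In the lower 50% the same call gave 6.62% S phase, 37.4% G2/M and 56.0% G1, so the comparison cells are a mixture of cells before and after S phase. The call and the rule read the same cells and share genes, so the 2 are not independent.

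Members and the lower 50% expressed epiblast markers, while lineage factors of the trophectoderm and primitive endoderm were scarce. POU5F1, the core pluripotency factor, stood at 872 and 883 UMIs per 1000000 UMIs (CPM) in members at 0 and 4 mM and at 856 and 842 CPM in the lower 50%. DPPA5, a marker of the naive state, stood at 2029 and 1617 CPM in members. The trophectoderm factors GATA3, GATA2, CDX2, TFAP2A and HAND1 reached at most 2.82 CPM in any of the 4 sums, and GATA4, GATA6, SOX17 and PDGFRA of the primitive endoderm at most 2.40 CPM. Of the 16 genes of the trophectoderm list, 3 reached the level needed to count, the keratins KRT18, KRT8 and KRT19, at 175 and 217, 110 and 94.5, and 98.2 and 62.4 CPM in members.

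Kept aggregate cells held 31291983 UMIs at 0 mM and 32430297 at 4 mM. The filters kept 75.6% of the barcodes with a pure 0 mM hashtag but 50.2% of those with a pure 4 mM hashtag. Of the kept cells, 97.4% were given the same culture by the HTODemux method and 50 were called hashtag doublets by it. Before these filters, 1346 of 1805 barcodes with a top 0 mM hashtag and 2186 of 4162 with a top 4 mM hashtag were pure at 80%. Among the kept cells, hashtag purity was lower in the 0 mM arm. At a purity of 90% or more, 475 of the 1017 cells at 0 mM and 1029 of the 1098 at 4 mM were left. The part of this in differences between doses was not tested. The 2 capture runs shared 28 barcodes. Members were somewhat deeper, with a median of 30521 UMIs and 5386 genes against 27330.5 UMIs and 4991.5 genes in the lower 50%, and mitochondrial shares were alike (medians 4.68% and 4.83%).

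The 9 chosen genes are given as a description, since they defined the members. DUT, the dUTPase that keeps uracil out of DNA, carried 34.1% of the members' rule-gene UMIs and stood at 359 CPM in members against 106 CPM in the lower 50% at 0 mM, and at 301 against 82.4 CPM at 4 mM. UNG, the glycosylase that removes uracil from DNA, was at 137 against 45.7 CPM at 0 mM and 164 against 55.0 CPM at 4 mM. CLSPN (claspin), which links stalled forks to the checkpoint kinase CHK1, stood at 161 against 54.5 CPM and 150 against 50.1 CPM in the same order. These 3 genes were higher in the members at both doses by a similar amount.

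GINS2, a subunit of the active helicase, was at 103 against 37.0 CPM at 0 mM and 102 against 30.7 CPM at 4 mM. DTL, the substrate receptor of the ubiquitin ligase that destroys the licensing factor CDT1 during S phase, was at 70.4 against 18.0 CPM and 63.5 against 18.5 CPM. E2F1, itself an E2F factor, was at 42.6 against 14.6 CPM and 42.8 against 17.4 CPM. TK1, the thymidine kinase of the salvage pathway, was the least concentrated of the 9 at 0 mM, with 82.7 against 33.7 CPM, and reached 110 against 36.1 CPM at 4 mM.

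The rarest of the 9 showed the steepest contrasts. WDR76 was at 25.7 against 3.81 CPM at 0 mM and 23.3 against 3.54 CPM at 4 mM. FAM111B, a nuclear protease gene, was at 8.93 against 0.763 CPM and 7.05 against 0.342 CPM. FAM111B was seen in 18.4% of members and in 1.13% of the lower 50%, while DUT was seen in 99.8% and 86.6%; both classes are H9 cells from the same cultures, and no cell type lacking these genes was captured with them among the aggregates, so the part of free RNA in these shares was not tested. The median depths were 30521 and 27330.5 UMIs. When the members were chosen on a random 50% of each cell's UMIs and valued on the rest, which removes the reuse of the same counts, the log2 ratio of the 9 genes ranged from 0.82 (E2F1 at 4 mM) to 3.01 (FAM111B at 4 mM).

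Beyond the 9 genes, 5107 genes with a mean of at least 20 CPM over the 4 sums (members and lower 50% in each arm) were counted. A gene was called when its ratio, with 0.5 CPM added to both sides, passed 1.5-fold in the same direction in both arms. By this rule 71 genes (1.39% of those counted) were higher in members and 12 (0.235%) were lower. No test was applied, because the members were chosen on expression in these same cells. The median log2 ratio over all counted genes was 0.03 in either arm. Intervals below are 95% exact Poisson intervals and cover counting error only, as do those on shares.

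Origin licensing was among the strongest groups, with 7 of 15 counted genes higher and 0 lower and a median log2 ratio of 0.60 at 0 mM and 0.57 at 4 mM. MCM6, a subunit of the helicase, stood at 140 CPM in members against 72.8 in the lower 50% at 0 mM and at 96.8 against 48.1 CPM at 4 mM (log2 0.94 and 1.00). MCM4, another subunit, stood at 241 against 132 CPM and 192 against 109 CPM. The subunits MCM3 (log2 0.60 and 0.49) and MCM7 (0.56 and 0.49) missed the threshold in at least 1 arm, so the helicase genes did not separate the classes equally. GMNN, geminin, which blocks relicensing, was higher too, at 138 against 80.6 CPM and 125 against 71.1 CPM. CDC6, which loads the helicase, had log2 ratios of 1.28 and 1.16.

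Of the origin firing genes, 4 of 8 were higher. CDC45, which joins MCM2-7 and GINS into the active helicase, ranked first outside the rule genes by the smaller ratio of both arms, with log2 values of 1.80 at 0 mM and 1.81 at 4 mM. MCM10, needed to activate the helicase, stood at 59.2 against 27.5 CPM and 47.4 against 18.8 CPM. By contrast WDHD1, which tethers polymerase α to the helicase, was at 148 against 128 CPM and 122 against 118 CPM, and DBF4, the activator of the kinase CDC7, at 83.5 against 70.3 CPM and 83.2 against 66.8 CPM. Both were among the more abundant firing genes and hardly differed between the classes.

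Of the 24 counted replisome genes, 11 were higher and 0 lower, with medians of 0.57 and 0.65. PCNA was at 205 CPM in members against 95.9 in the lower 50% at 0 mM and at 203 against 89.6 CPM at 4 mM. RFC2, a subunit of the loader that opens the PCNA ring, was at 99.9 against 53.5 CPM and 98.7 against 52.3 CPM, and the flap endonuclease FEN1 had log2 ratios of 1.06 and 1.07. Several abundant replisome genes did not follow: POLD2, a polymerase δ subunit, stood at 84.1 against 82.7 CPM and 85.1 against 75.9 CPM, and RPA3, of the single-strand binding complex, at 180 against 150 CPM and 130 against 116 CPM.

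Deoxynucleotide supply split into 3 genes that were higher and 8 that did not pass. RRM2, the regulated subunit of ribonucleotide reductase, was at 107 against 42.3 CPM at 0 mM and 118 against 33.2 CPM at 4 mM (log2 1.32 and 1.82). RRM1, its other subunit, had log2 ratios of 0.86 and 0.74. TYMS, thymidylate synthase, reached log2 ratios of 0.48 and 0.43, and SAMHD1, which degrades deoxynucleotides, 0.06 and 0.01. In the wider list of purine, pyrimidine and one-carbon synthesis, 0 of 16 counted genes were called in either direction. That is near the background of 1.39% higher and 0.235% lower.

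In the fork checkpoint, 2 of 9 genes were higher. CDC25A, the phosphatase that activates CDK2, was at 55.8 against 23.6 CPM and 58.9 against 24.0 CPM, and TIPIN, of the fork protection complex, was the other. The checkpoint kinase CHEK1 had log2 ratios of 0.43 and 0.48, and the CDK inhibitory kinase WEE1 0.53 and 0.30. Of the recombination and Fanconi genes, 6 of 14 were higher, among them BRCA1, which promotes recombination repair, at 92.3 against 39.7 CPM and 86.0 against 38.4 CPM. In mismatch and base excision repair 0 of 9 genes were called, a count near the background of 1.39% higher and 0.235% lower. PARP1 stood at 478 against 487 CPM and 473 against 503 CPM.

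Genes that copy chromatin behind the fork were higher in 5 of 11 cases. SLBP, which binds the stem-loop of histone mRNA, was at 157 against 73.4 CPM and 132 against 62.6 CPM. CHAF1A, of the histone chaperone CAF-1, was at 67.7 against 31.1 CPM and 64.0 against 26.3 CPM. UHRF1, which recruits the maintenance DNA methyltransferase to newly copied DNA, had log2 ratios of 1.14 and 1.75. The methyltransferase DNMT1 itself stood at 81.9 against 62.2 CPM and 92.9 against 54.5 CPM (log2 0.39 and 0.76), so it passed the threshold at 4 mM alone.

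The replication-dependent histones had the highest medians of all lists, 1.38 at 0 mM and 1.04 at 4 mM, with 8 of 9 counted genes higher. HIST1H4C, the most abundant of them, was at 1064 CPM in members against 516 in the lower 50% at 0 mM and at 834 against 479 CPM at 4 mM. The linker histone HIST1H1A was at 318 against 108 CPM and 217 against 90.6 CPM. HIST1H1D was at 292 against 112 CPM and 210 against 102 CPM. Most mRNAs of these genes end in a stem-loop in place of a poly(A) tail, and the library was primed on poly(A), so the values describe the polyadenylated fraction. Gene family members are near-identical in places and how the counting split reads between them was not examined.

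The lists of regulators upstream of S phase are short, and E2F1 was kept out of the counts as a rule gene. Over all counted genes 1.39% were called higher. Of the E2F and RB family genes outside the rule, 0 of 4 were called, a count near that background. TFDP1, the partner of E2F factors, came closest with log2 ratios of 0.53 and 0.72. Of 8 cyclins, kinases and inhibitors of G1 and S, 1 was called: CCNE1, cyclin E1, at 106 against 45.9 CPM and 122 against 53.8 CPM. CDK4, a kinase partner of the D cyclins, was at 117 against 93.9 CPM at 0 mM and 135 against 90.3 CPM at 4 mM, a log2 ratio at 4 mM of 0.58 (interval 0.45 to 0.71) that lay just under the threshold. Cyclin D2 (CCND2) had log2 ratios of 0.67 and 0.23, and so passed at 0 mM alone. Cyclin A2 (CCNA2, log2 0.20 and 0.13) and cyclin D1 (CCND1, 0.04 and -0.11) lay nearer to 0.

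**Figure D2:**
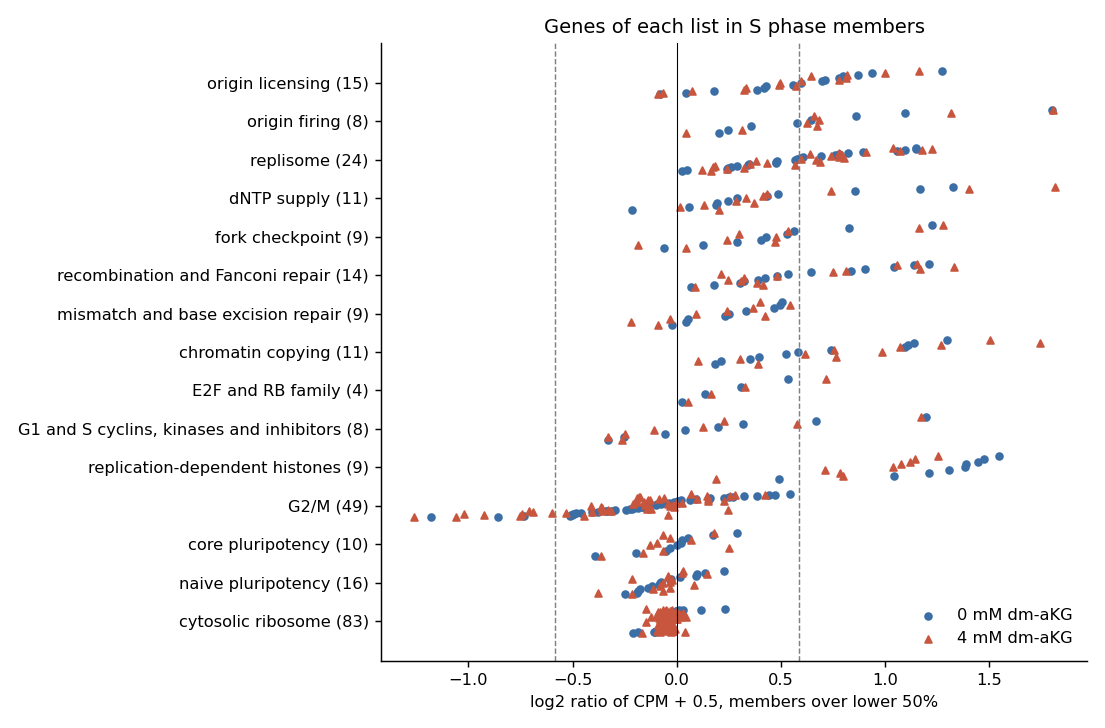
Log2 ratio of CPM + 0.5 between S phase members and the lower 50% (x axis) for every counted gene of 15 lists (y axis, number of genes in parentheses), with circles for 0 mM and triangles for 4 mM; dashed lines mark 1.5-fold. The replication lists and histones lie to the right, while pluripotency and ribosome genes cluster at 0 and the G2/M list spreads to the left.

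Among the 12 genes called lower in members was PLK1, a mitotic kinase. It was at 35.4 CPM in members against 69.2 in the lower 50% at 0 mM and at 30.5 against 63.6 CPM at 4 mM. PTTG1, securin, was at 106 against 188 CPM and 80.0 against 186 CPM, and CCNB1, cyclin B1, at 136 against 216 CPM and 122 against 196 CPM. UBE2S, an E2 enzyme of the anaphase-promoting complex, was at 457 against 772 CPM and 391 against 694 CPM. The rest were ARL6IP1, AURKA, CDC20, GABPB1-AS1, HMMR, KPNA2, MEIOB and JUN. Of the 12, 8 were outside every gene list, PLK1, PTTG1, CCNB1 and UBE2S among them. On the G2/M list itself 3 of 49 counted genes were lower, AURKA, CDC20 and HMMR, and 0 were higher. The share called lower over all counted genes was 0.235%. The list had medians of -0.15 in both arms, and its most abundant genes JPT1, CKS1B and TUBB4B had log2 ratios between -0.23 and -0.01.

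Outside every list, 23 of 4746 counted genes were higher in members. FBXO5 (EMI1), the inhibitor of the anaphase-promoting complex, had the largest ratio among these, at 43.0 against 13.3 CPM and 49.4 against 15.2 CPM. ESCO2 and CDCA5 (sororin), which establish sister chromatid cohesion, had log2 ratios of 1.28 and 1.49, and of 1.06 and 0.90. EZH2, the methyltransferase of Polycomb repressive complex 2, was at 79.4 against 40.6 CPM and 63.1 against 37.2 CPM. The others named by rank were CDCA7L, ZGRF1, DIAPH3, C3orf14, MELK, MMS22L, HERC5 and SAP30, with log2 ratios between 0.72 and 1.13.

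Lists of identity, stress and housekeeping genes gave almost no calls. These lists are short, and with 1.39% of all counted genes called higher and 0.235% called lower, a count of 0 in such a list is near the background and says little about it. Calls were 0 of 10 for core pluripotency, 0 of 16 for naive pluripotency, 0 of 3 for post-implantation epiblast and 0 of 3 for trophectoderm. They were also 0 of 8 for p53 targets, 0 of 8 for ATF4 targets, 0 of 13 for glutamate and α-ketoglutarate enzymes, 0 of 12 for cholesterol synthesis, 0 of 83 for cytosolic ribosome and 0 of 13 for the mitochondrial genome. Medians were not all near 0, as the p53 targets had 0.34 at 0 mM and 0.05 at 4 mM. The ribosomal genes had medians of -0.06 and -0.05, and 69 of the 83 were lower in members in both arms. Among 3 immediate early genes, JUN was called lower, at 11.5 against 21.4 CPM at 0 mM and 23.8 against 38.6 CPM at 4 mM.

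Along the whole score, groups followed different courses. When all aggregate cells were divided into 5 equal bins of the score, with the members as the top bin, summed histone CPM went from 702 in the lowest bin through 1224, 1441 and 1949 to 2566 at 0 mM, and from 720 through 1086, 1467 and 1754 to 1921 at 4 mM. Licensing genes went from 792 to 1379 CPM at 0 mM and from 741 to 1256 CPM at 4 mM. The G2/M list did not run opposite to the score: it was at 4776 CPM in the lowest bin, highest at 6404 CPM in the middle bin and at 5028 CPM in the members at 0 mM. At 4 mM the same list stood at 4288 CPM in the lowest bin, 5526 CPM in the next and 4428 CPM in the members. At either dose the members and the lowest bin were the 2 bins poorest in G2/M transcripts.

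**Figure D3:**
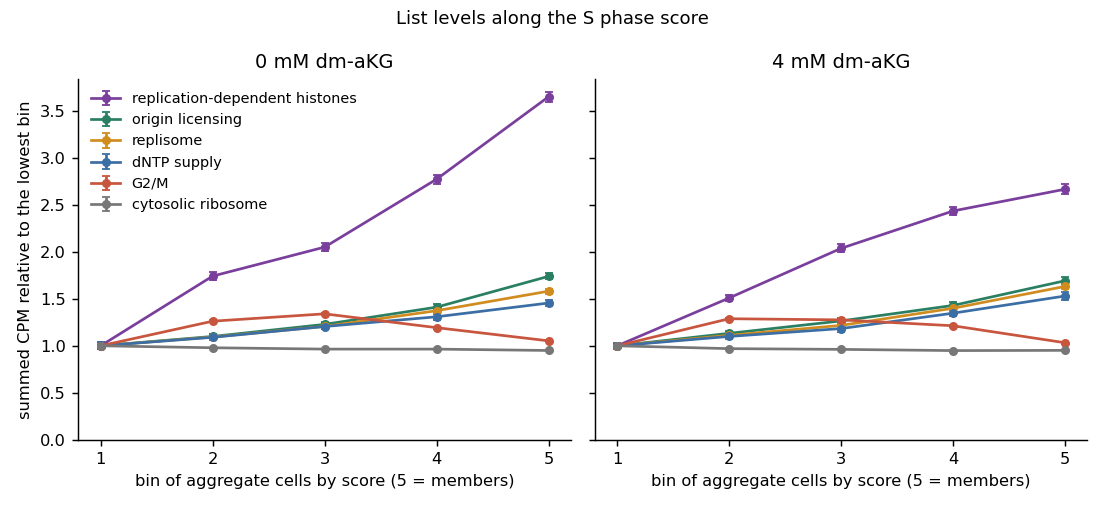
Summed CPM of 6 gene lists relative to the lowest bin (y axis) across 5 equal bins of aggregate cells by S phase score (x axis, 5 being the members), at 0 mM (left) and 4 mM (right), with 95% Poisson intervals. Histones climb most steeply, licensing, replisome and nucleotide genes climb gradually, the G2/M list peaks in the second or the middle bin, and the ribosome list stays near 1.

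Cells rich in G2/M transcripts were rare among members. Of the 20% of aggregate cells with the highest G2/M share, 3.31% of members were part, against 22.7% of the middle and 25.05% of the lower 50%. With these cells left out of both classes, 105 genes were higher and 5 lower, of which 65 and 4 were among the 71 and 12 above. Leaving out cells by their G2/M share lowers the level of G2/M genes by construction.

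Histone levels ranged widely among the members. Their histone share ran from 1.17 to 64.7 UMIs per 10,000, with a median of 17.0 against 4.79 in the lower 50%. When members were divided into 3 equal groups by histone share within each arm, a division chosen after their values were seen, the score medians were 9.35, 9.70 and 9.86 at 0 mM and 9.33, 9.63 and 9.67 at 4 mM. These medians lie in a narrow range. Every member had passed the same score threshold, which bounds the score from below only, and its part in this was not tested. HIST1H4C went from 350 to 974 and 1669 CPM at 0 mM and from 329 to 625 and 1419 CPM at 4 mM.

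Of the S phase genes outside the rule, RRM2 had its highest values in the histone-rich members. It was at 79.3, 107 and 127 CPM from the histone-poor to the histone-rich members at 0 mM, and at 80.0, 130 and 139 CPM at 4 mM. E2F1, one of the 9 genes that chose the members, was at 49.5, 43.0 and 37.3 CPM, with overlapping end intervals (40.5 to 59.8 and 30.6 to 45.0), and at 51.2, 41.8 and 37.1 CPM. CDC6 was at 66.3, 83.5 and 72.5 CPM and at 72.9, 76.0 and 74.6 CPM. The mitotic kinase PLK1 was at 30.8, 31.2 and 42.5 CPM and at 14.7, 23.3 and 49.3 CPM, and TOP2A, which untangles copied DNA, at 85.9, 73.8 and 116 CPM and at 37.1, 57.5 and 118 CPM. Histone-rich members were also deeper, with a median of 38002.5 UMIs against 27650 in the histone-poor group at 0 mM and 31959.5 against 27359 at 4 mM; the part of depth in these differences was not tested.

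Members made up 22.5% of aggregate cells at 0 mM (229 of 1017, 95% Clopper-Pearson interval 20.0 to 25.2) and 17.7% at 4 mM (194 of 1098, 15.5 to 20.1). The difference was -4.85 percentage points. With every cell thinned to 7000 UMIs the shares were 23.7% and 16.6%, and with the HTODemux assignment 21.9% and 17.8%. The Seurat S phase call gave 41.5% and 31.2%. Each of these settings placed fewer S phase cells in the 4 mM culture.

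One gene weighed on the difference in share given by the 9-gene score. When DUT was left out of the score, the remaining 8 genes gave 20.6% (18.2 to 23.3) at 0 mM and 19.4% (17.1 to 21.9) at 4 mM, a difference of -1.25 points with an interval of -4.66 to 2.16. Over all aggregate cells DUT was at 201 CPM at 0 mM and 147 CPM at 4 mM (log2 -0.45, interval -0.50 to -0.39), and the other 8 genes together at 372 and 352 CPM. DUT was lower at 4 mM in the lower 50% as well (log2 -0.36). It was not alone: over all cells 6 of the 9 genes were lower at 4 mM with intervals below 0, the others being GINS2 (log2 -0.26), DTL (-0.21), CLSPN (-0.25), FAM111B (-0.74) and WDR76 (-0.49). UNG and TK1 had values of 0.17 and 0.13 with intervals above 0, and E2F1 was at 0.00. The 38 Seurat S phase genes outside the rule, DUT not among them, were lower at 4 mM as a sum. They summed to 4027 CPM at 0 mM and 3684 CPM at 4 mM in members, and to 2471 and 2193 CPM in the lower 50%. The filters had removed a larger part of the barcodes at 4 mM; whether that changed the shares was not tested.

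Within the members, 65 of 5107 genes (1.27%) were at least 1.5-fold higher at 4 mM and 75 (1.47%) at least 1.5-fold lower. In the lower 50%, whose cells come from the same 2 cultures, the counts were 59 (1.16%) and 82 (1.61%). Of the genes higher in the members, 32 were also called in the lower 50%, that is 32 of 65 and of 59; of those lower, 44 of 75 and of 82 were. All 65 and all 75 had the same sign in the lower 50%.

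The genes higher at 4 mM in members included the metallothioneins, which bind zinc and copper. MT1G was at 876 CPM at 4 mM against 443 at 0 mM in members (log2 0.98, interval 0.92 to 1.05) and 0.84 higher on the log2 scale in the lower 50%. MT2A, MT1F and MT1H had log2 ratios of 0.84, 1.03 and 0.86. SAT1, the rate-limiting enzyme of polyamine breakdown, was at 128 against 58.0 CPM (log2 1.14, interval 0.97 to 1.32; 0.76 in the lower 50%). DDIT4, an inhibitor of mTORC1, was at 337 against 186 CPM, and NQO1, a quinone reductase of the NRF2 response, at 69.8 against 38.1 CPM. CCPG1, SFRP1, AP1S1, IGFBP2 and CENPV completed the 12 highest, at log2 values from 0.76 to 1.02.

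Of the genes lower at 4 mM, the de novo DNA methyltransferase DNMT3B came first, at 84.8 CPM against 215 at 0 mM in members (log2 -1.34, interval -1.49 to -1.20) and at 81.6 against 194 CPM in the lower 50%. Its cofactor DNMT3L was at 100 against 165 CPM in members. All 3 counted genes of the post-implantation epiblast list, CD24, DNMT3B and FGF2, were lower, with a median log2 ratio of -1.10 in members and -1.24 in the lower 50%. CCND1 was at 19.7 against 47.2 CPM in members (log2 -1.24) and had a log2 ratio of -1.09 in the lower 50%. ZNF486, at 68.7 against 119 CPM in members (log2 -0.79) but with a log2 ratio of -0.15 in the lower 50%, was the gene among these 24 with the widest gap between the classes.

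Between doses, 0 of 15 licensing genes, 0 of 8 firing genes and 0 of 24 replisome genes passed 1.5-fold in members, which is near the background of 1.27% and 1.47%. Of the 11 deoxynucleotide supply genes, 1 passed: SLC29A1, a nucleoside transporter, at 54.1 CPM at 4 mM against 35.8 at 0 mM (log2 0.59, interval 0.35 to 0.84), with a log2 ratio of 0.54 in the lower 50%. Among the named genes of the licensing, firing and replisome lists, the largest shift was that of MCM6 (log2 -0.53, interval -0.68 to -0.38), which was lower by 0.59 on the log2 scale in the lower 50% too. Histones were an exception in size: the 9 counted genes were all lower at 4 mM in members, with a median of -0.44, while the lower 50% had a median of -0.11 and the median over all counted genes in members was -0.04. One of the 9, HIST2H2AC, passed 1.5-fold (log2 -0.61). Summed over the list, members held 2566 CPM of histones at 0 mM and 1921 CPM at 4 mM, and the lower 50% held 1093 and 1021 CPM. Members at 0 mM also contained more G2/M-rich cells (5.24% against 1.03%) and were deeper (medians 31287 and 29438.5 UMIs); the part of these in the histone difference was not tested.

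**Figure D4:**
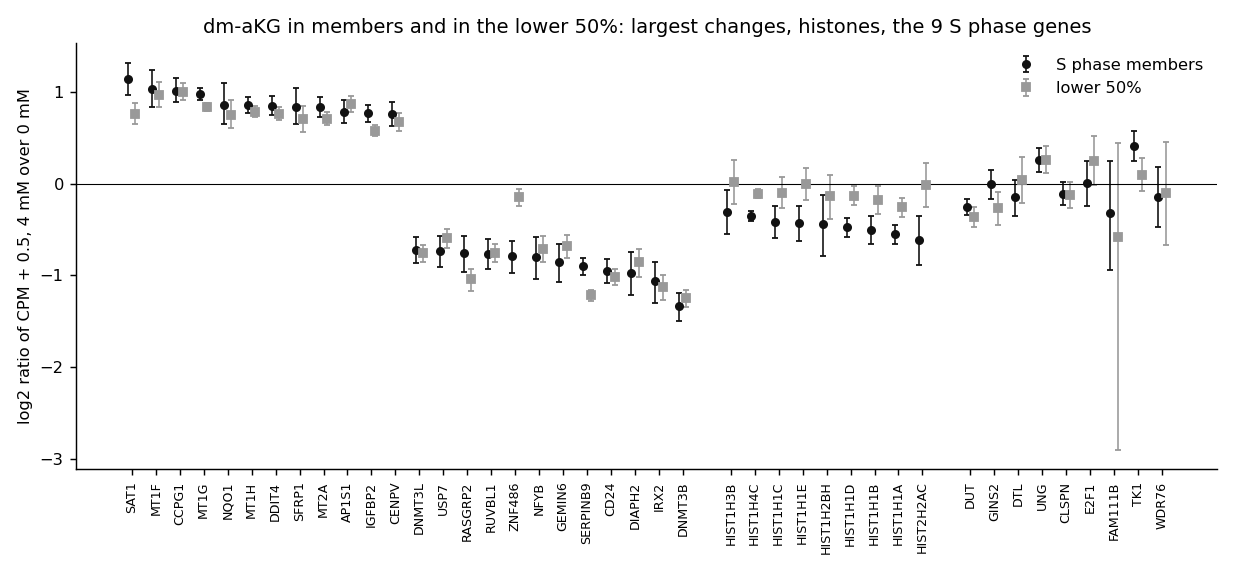
Log2 ratio of CPM + 0.5 at 4 mM over 0 mM (y axis) in S phase members (black circles) and in the lower 50% (grey squares) for the 24 genes with the largest ratios in members, the 9 counted histones and the 9 chosen genes; bars are 95% Poisson intervals. The 2 classes lie side by side for most genes, while members sit below the lower 50% for all 9 histones.

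To see whether the S phase contrast was the same at a later stage, the top 20% and the lower 50% by the same 9 genes were taken within each of the 2 aggregate arms and 4 blastoid arms at 120 h (0 and 4 mM in run 1 and in run 2). The 4 mM blastoids had received dm-αKG for the first 40 h only. By 120 h blastoids had been moved from PALLY to a medium without its MEK and TGFβ receptor inhibitors and LIF. Stage therefore cannot be told apart from medium or from time since dm-αKG. Each cell was thinned to 7000 UMIs for this choice, and in blastoids only cells whose epiblast markers outweighed their trophectoderm markers were used. The share of such blastoid cells above the aggregate cut was 24.9% and 25.8% in run 1 and 21.9% and 25.4% in run 2, at 0 and 4 mM in each, so all 4 lay between the 2 doses of aggregates or above both. Depth was alike in run 1 (medians 28909 and 30057.5 UMIs in blastoids) and lower in run 2 (15947 and 15631).

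The difference of the contrast between stages was tested with edgeR's quasi-likelihood test over the 12 sums with the arm as a block, on 15115 genes without the 9 chosen ones. With Benjamini-Hochberg adjustment, 28 genes (0.185%) had a larger value in aggregates and 12 (0.0794%) a smaller one. The aggregates came from run 1 only, so stage and run are partly confounded; with run 1 alone the counts were 20 and 5, of which 17 and 5 were shared with the full set. The choice of cells used the 9 genes and not the genes tested, but in the same cells. Without the arm as a block, 0 genes passed in either direction in edgeR (298 at an unadjusted p under 0.05), and DESeq2 called 7 and 2. The smaller values rested most on single arms: without the aggregates at 0 mM, 1 of the 12 was still called, and without those at 4 mM 8 were. The 28 larger values kept 9 and 11 calls in these fits, and 21 when cells were chosen on full counts.

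Histones formed the largest group, with 8 of 60 tested larger in aggregates and 0 smaller. HIST1H1C, a linker histone, had log2 contrasts of 1.12 and 1.06 in the aggregates at 0 and 4 mM and of 0.30, 0.28, 0.51 and 0.35 in the blastoid arms (edgeR's quasi-likelihood test, Benjamini-Hochberg adjusted p = 8.0e-10). HIST1H4C had 0.58 and 0.64 in aggregates and 0.04, 0.33, 0.42 and 0.29 in blastoids (adjusted p = 2.5e-07 in the same edgeR test). Both genes had non-overlapping values at the 2 stages. In the same edgeR test HIST1H1D (adjusted p = 2.9e-07) and HIST1H1B (adjusted p = 0.00013) also passed.

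Of 54 G2/M genes, 7 had a larger value in aggregates, which for these genes meant a less negative one. PLK1, which is outside that list, had contrasts of -0.70 and -0.76 in aggregates and of -1.06, -1.69, -1.13 and -1.51 in blastoids (edgeR adjusted p = 5.8e-06). AURKA, another mitotic kinase, had -0.64 and -0.38 in aggregates and -0.86, -1.26, -0.89 and -1.04 in blastoids (edgeR adjusted p = 3.9e-05). These values lay nearer to 0 in both aggregate arms than in any blastoid arm. UBE2C, the E2 enzyme that starts ubiquitin chains for the anaphase-promoting complex, and HMMR followed the same order, with edgeR adjusted p = 2.1e-07 and 0.00042.

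Several E2F targets had the opposite order. ATAD2, a chromatin-bound ATPase, had contrasts of 0.90 and 1.08 in aggregates and of 1.75, 1.79, 1.47 and 1.76 in blastoids (edgeR adjusted p = 0.00013). CDC6 had 0.91 and 1.04 against 1.54, 1.37, 1.35 and 1.40 (edgeR adjusted p = 0.0045), and SLBP 0.93 and 0.88 against 1.38, 1.44, 1.13 and 1.33 (edgeR adjusted p = 0.00042). Without the aggregates at 0 mM, ATAD2 and CDC6 no longer passed, with differences of -0.58 and -0.34, whereas SLBP did at -0.40; CDC6 did not pass in run 1 alone either. Of the Seurat S phase genes outside the rule, 4 of 38 were smaller in aggregates and 0 larger, namely ATAD2, CDC6, SLBP and CDCA7. The licensing list had 1 of 16 smaller, CDC6 again. The firing, replisome and nucleotide lists had 0 called, near the background of 0.185% larger and 0.0794% smaller. The medians of the difference for these 4 lists were -0.12, -0.06, -0.03 and 0.00.

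Genes outside the cycle were also called. DDIT4 was even in aggregates (0.12 and 0.07) and lower in the S phase cells of blastoids (-0.44, -0.25, -0.38 and -0.30; edgeR adjusted p = 1.0e-08). HERPUD1, of endoplasmic reticulum protein quality control, had 0.35 and 0.20 against -0.07, -0.13, -0.14 and -0.30 (edgeR adjusted p = 0.00042). Of the 12 ATF4 targets, 3 were larger in aggregates. Core and naive pluripotency lists had 0 of 10 and 0 of 20 called, near the background of 0.185% larger and 0.0794% smaller.

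**Figure D5:**
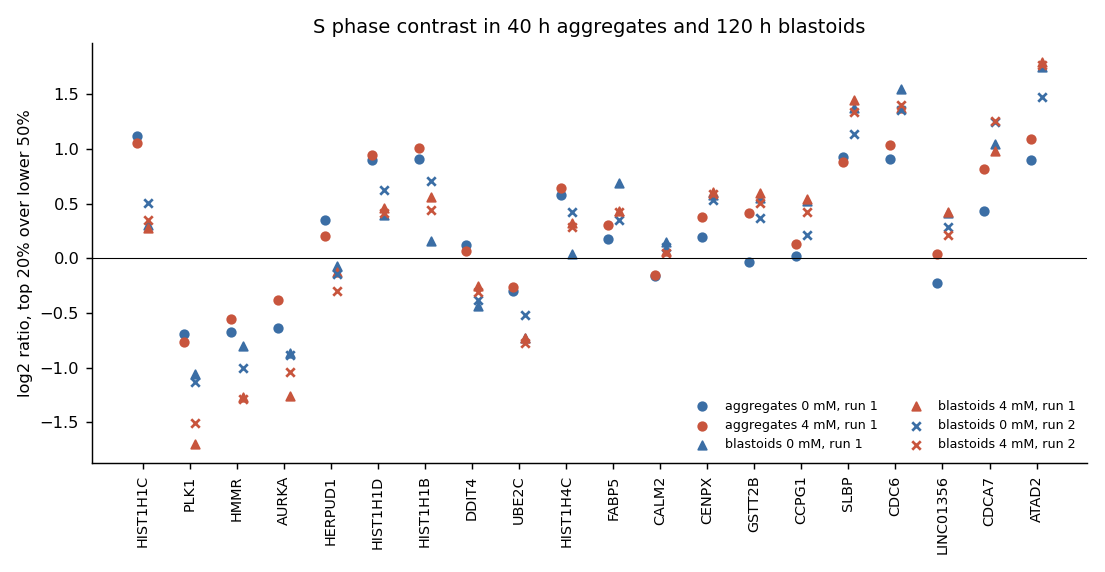
Log2 ratio of the top 20% over the lower 50% by S phase score (y axis) for the 20 genes named by the test between stages (x axis), in the 2 aggregate arms (circles) and 4 blastoid arms (triangles for run 1, crosses for run 2), with 0 mM in blue and 4 mM in red. Histones and mitotic genes lie higher in aggregates on the left, and ATAD2, CDCA7, CDC6 and SLBP lie higher in blastoids on the right.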

How the data were processed

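The authors deposited UMI counts per gene and barcode for both capture runs, made with Cell Ranger 6.1.2 on GRCh38 after bcl2fastq 2.20.0.422, with hashtag counts in the same matrices; they analysed them in Seurat 4.3.0. Cultures were taken from the deposited hashtag tables. Barcodes were kept here with a single hashtag at 80% or more of hashtag UMIs, at most 15% mitochondrial UMIs and at least 7000 UMIs. Doublets were addressed by the hashtag rule only. Members and gene lists were chosen with earlier results of these data known. Counts were summed per class and arm, scaled to CPM and compared as log2(CPM + 0.5) in Python 3.11.15 (scipy 1.17.1) with exact Poisson and Clopper-Pearson intervals. The stage difference was tested with edgeR 4.0.16 in R 4.3.3 (TMM, filterByExpr, arm as block, 4 residual degrees of freedom). The variance of each gene was moderated across genes with a median of 117 prior degrees of freedom. The p-values thus rest mostly on a spread shared over genes and less on that of a gene's own arms. The arms are separate cultures by hashtag, and no spread beyond these arms is measured. On simulated data the edgeR test recovered 100% of 200 genes changed 2-fold, with 6 false calls among 14517. The simulation had no arm effects and no choice of cells by score, and changed only genes of at least 20 CPM. The named real differences were below 2-fold, so it cannot give the rate of missed or false calls in the real data. DESeq2 1.42.0 and Seurat 5.3.0 (HTODemux, cell cycle calls) served alternatives. Genes were named by rank: the chosen 9 genes, the most abundant 3 of each list (6 in replication lists), the 12 largest ratios each way outside lists and for dose (mean of at least 50 CPM), and the 10 lowest p each way for stage. CDC6, CDC45, FEN1, RRM1, TIPIN, UHRF1, DNMT1, AURKA, CDC20, HMMR, HIST2H2AC and the genes ordered by histone share were named after their values were seen. Some genes that the naming rule selects are not reported here. Processing alternatives are given at the end.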

Additional observations from a re-analysis of the deposited data

Results flagged for a closer look

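The contrast between S phase members and the lower 50% differed between 40 h aggregates and 120 h blastoids for 20 named genes by edgeR's quasi-likelihood test with Benjamini-Hochberg adjustment. On the log2 scale, aggregates minus blastoids, the larger contrasts were 0.73 for HIST1H1C, 0.67 for PLK1, 0.56 for HMMR, 0.53 for AURKA, 0.51 for HERPUD1, 0.46 for HIST1H1D, 0.44 for HIST1H1B, 0.44 for DDIT4, 0.41 for UBE2C and 0.34 for HIST1H4C. The smaller contrasts were -0.66 for ATAD2, -0.55 for CDCA7, -0.44 for LINC01356, -0.39 for CDC6, -0.36 for SLBP, -0.28 for CCPG1, -0.28 for GSTT2B, -0.27 for CENPX, -0.21 for CALM2 and -0.19 for FABP5. In GSTT2B (edgeR adjusted p = 0.040) the aggregates at 4 mM (0.41) lay within the range of the blastoid arms (0.37 to 0.60).

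One blastoid arm stood apart from the other 3 for ATAD2, namely run 2 at 0 mM with a contrast of 1.47. It was 1 of 21 groups of 4 arms examined, and chance alone flags about 1 in 20 such groups.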

How the results depend on the processing

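The expression minimum, the depth of each cell, the size of the top class, the UMIs used for the choice and G2/M cells moved gene counts by over 1.5 times. With every cell thinned to 7000 UMIs, 42 genes were higher in members and 3 lower. With the top 10% as members, the shares were 11.8% and 8.38% 20 genes were lower in members, and 100 were higher and 119 lower at 4 mM. With members chosen on 50% of the UMIs and valued on the rest, 102 genes were higher at 4 mM. Without the top 20% by G2/M share, 5 were lower. Counting genes from 1 CPM gave 327 higher and 86 lower in members, with 862 higher and 779 lower at 4 mM; counting from 50 CPM gave 32 and 7, and 25 and 26. The Seurat S phase call gave 41.5% and 31.2%, a difference of -10.3 points, and the score without DUT -1.25 points. The median of the fork checkpoint list turned to -0.0099 when counted from 50 CPM, its value then being that of HUS1. The cause of these shifts was not tested. Other thresholds for hashtags, mitochondrial share, UMIs, score and pseudocount, and cuts within each arm, left the counts within 1.5 times. For the stage difference, DESeq2 called 7 larger and 2 smaller among the 5148 genes it gave an adjusted p, the fit without the arm block 0 and 0, cells chosen on full counts 45 and 21 (21 and 10 of them shared), and run 1 alone gave 5 smaller. Leaving out each arm in turn gave 9 to 25 larger and 4 to 21 smaller. Without the aggregates at 0 mM the counts were 9 and 4, of which 9 and 1 were among the 28 and 12, and without those at 4 mM 14 and 15, of which 11 and 8 were. Without run 1 blastoids at 0 mM 21 were smaller, and without run 2 blastoids at 0 or 4 mM 5 and 6. With 1 aggregate arm left, that arm is assumed to vary as the others do. Members and lower 50% were paired within each arm in the stage test. For dose in aggregates there was 1 culture each, so no replicated pairs existed. The design, with 1 aggregate culture per dose, sets the main limit: intervals cover counting of cells and UMIs and not differences between cultures, and genes under 20 CPM were not counted.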
